A study of Rattus norvegicus with 15 samples.

Results

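Desert hedgehog (Dhh) is a secreted protein through which Sertoli cells, the somatic cells that line the seminiferous tubule, signal to the peritubular and Leydig cells outside it. The ligand binds the membrane receptor Patched 1 (Ptch1), which relieves the block that Patched holds on Smoothened (Smo), and Smoothened then acts through the zinc finger transcription factors Gli1, Gli2 and Gli3. Sufu binds the Gli proteins and holds them back, while Ptch1, Gli1 and the ligand-binding decoy Hhip are themselves transcribed in response to the signal and damp or extend it. In the fetal testis the pathway is known for the formation of Leydig cells and of the peritubular layer.

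These 8 genes were followed in the testes of LBNF1 rats, a hybrid strain used in the laboratory, with Affymetrix expression arrays, where a gene is read by probe sets of short oligonucleotides. Members were the probe sets whose only gene symbol in the platform's annotation was one of the 8 names, and there were 7 such probe sets among 31099, for 6 of the 8 genes and among 14218 genes with a probe set of a single symbol. Dhh (probe set 1384864_at), Gli1 (1378720_at), Gli2 (1390233_at), Hhip (1390606_at) and Sufu (1385042_at) each had 1 probe set and Smo had 2 (1370143_at and 1389475_at). Ptch1 and Gli3 were not analysed here. The series compares 10 control with 5 irradiated samples, all from rats aged 25 to 27 weeks. The labels give 6 Gy to the lower abdomen as the treatment, in a text that controls carry too, but name the control testes as taken before irradiation. They say nothing of the time from irradiation to collection. Samples are called biological replicates with no word on whether they came from separate rats, and the p-values therefore measure only how these samples spread, which may be technical. Whole testes were measured, so a lower signal from fewer cells of a type cannot be told apart from less RNA per cell. Nor can a higher signal from a larger share of a cell type be told apart from more RNA per cell.

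Values are log2 signals with an unknown zero point, on which only differences between arrays can be read. Array medians lay between -1.61 and -1.37 in control and between -1.38 and -1.26 in irradiated arrays, and the hybridisation spike-ins rose by 0.83 to 0.97 log2 units for each doubling of their concentration. Control samples 6, 7 and 8 stood apart from the other controls in how far the 3′ actin probe set exceeded the 5′ one, which grows as RNA breaks down, at 1.37 to 1.89 against 0.65 to 1.05 in the other controls and 0.90 to 1.16 in irradiated samples. A probe set was tested where it reached the median of its array in at least 5 of the 15 arrays. A change is irradiated minus control, its error is limma's moderated standard error, and each adjusted p is limma's, adjusted over all 18711 probe sets tested, with a threshold of 0.05. A group whose every array lay below its own array median is called dim, as a stand-in for detection calls. The size of a change is then known only as a bound. A difference called measured takes the dim values as they stand and gives no size. A tested probe set that was dim in either group passed the filter through the other group alone. The direction of its call is therefore no separate support.

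The promoters of the ligand and of the inhibitor are shown because Dhh and Sufu were above the array median in all 10 controls and moved in opposite directions, and that of Ptch1 because it is the textbook target of the pathway. Of the 8 members, 7 had an entry among the RefSeq promoters of the rat assembly GRCr8, and Gli1 had none. Each sequence holds the 250 bases before the annotated start, 5′ to 3′ along the gene: chr7:131935353-131935602, minus strand, for Dhh, chr1:255198939-255199188, plus strand, for Sufu, and chr17:1555321-1555570, plus strand, for Ptch1. Capitals mark matches, on either strand, to 5 short motifs: the Gli site GACCACCCA, the cyclic AMP response element TGACGTCA, the GATA site AGATAA, whose first base may also be T and whose last may also be G, the GC box GGGCGG and the CCAAT box.
Dhh: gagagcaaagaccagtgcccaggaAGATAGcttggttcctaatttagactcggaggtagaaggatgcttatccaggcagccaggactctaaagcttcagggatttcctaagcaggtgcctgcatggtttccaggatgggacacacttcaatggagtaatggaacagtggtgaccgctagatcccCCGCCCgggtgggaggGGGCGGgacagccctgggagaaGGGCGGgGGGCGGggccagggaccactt
Sufu: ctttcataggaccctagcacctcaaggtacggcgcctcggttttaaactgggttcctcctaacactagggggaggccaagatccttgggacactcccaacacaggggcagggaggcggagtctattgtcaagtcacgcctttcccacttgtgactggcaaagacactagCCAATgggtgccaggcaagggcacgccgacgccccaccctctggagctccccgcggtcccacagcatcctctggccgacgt
Ptch1: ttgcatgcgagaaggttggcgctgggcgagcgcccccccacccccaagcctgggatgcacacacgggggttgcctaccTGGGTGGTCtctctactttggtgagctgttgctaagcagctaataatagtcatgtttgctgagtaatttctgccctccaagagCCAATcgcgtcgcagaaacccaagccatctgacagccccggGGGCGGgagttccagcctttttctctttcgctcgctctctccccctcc

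Counted back from the start, the Dhh window held GC boxes at -66, -50, -28 and -21 and a GATA match at -226, while the Sufu window held a CCAAT box at -81 and no other motif of the 5. Ptch1 was the 1 member of the 7 with the Gli letters, on the minus strand at -172. No matches overlapped in these 3 windows. Among all 33469 promoter windows of the same length, 0.338% held the Gli letters, 1.59% the cyclic AMP element, 27.0% a GATA match, 30.5% a GC box and 34.0% a CCAAT box, so that all but the first 2 are common. These matches describe the letters of the windows, and the GATA, GC box and CCAAT motifs were chosen after the sequences had been seen.

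Among the pathway members, irradiated testes had a higher signal of the ligand gene Dhh and of the transcription factor gene Gli1 and a lower signal of the inhibitor gene Sufu. Dhh rose 3.67-fold and Sufu was at least 23.7-fold lower, while Gli1, which was dim in every control array, was at least 1.95-fold higher. The other members, Smo, Gli2 and Hhip, lay near or below the array median in both groups and were not tested. Of the 7 member probe sets, 3 were tested, of which 2 were called higher and 1 lower. Over all probe sets tested, 49.0% were called higher and 34.3% lower, so that being called is not particular to these members. All 3 had irradiated values that did not overlap with control values, which held for 41.3% of all tested probe sets in the higher and for 24.2% in the lower direction. Gli1 reached the array median in irradiated arrays only, so it could pass the filter only if it was higher there.

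**Figure D1:**
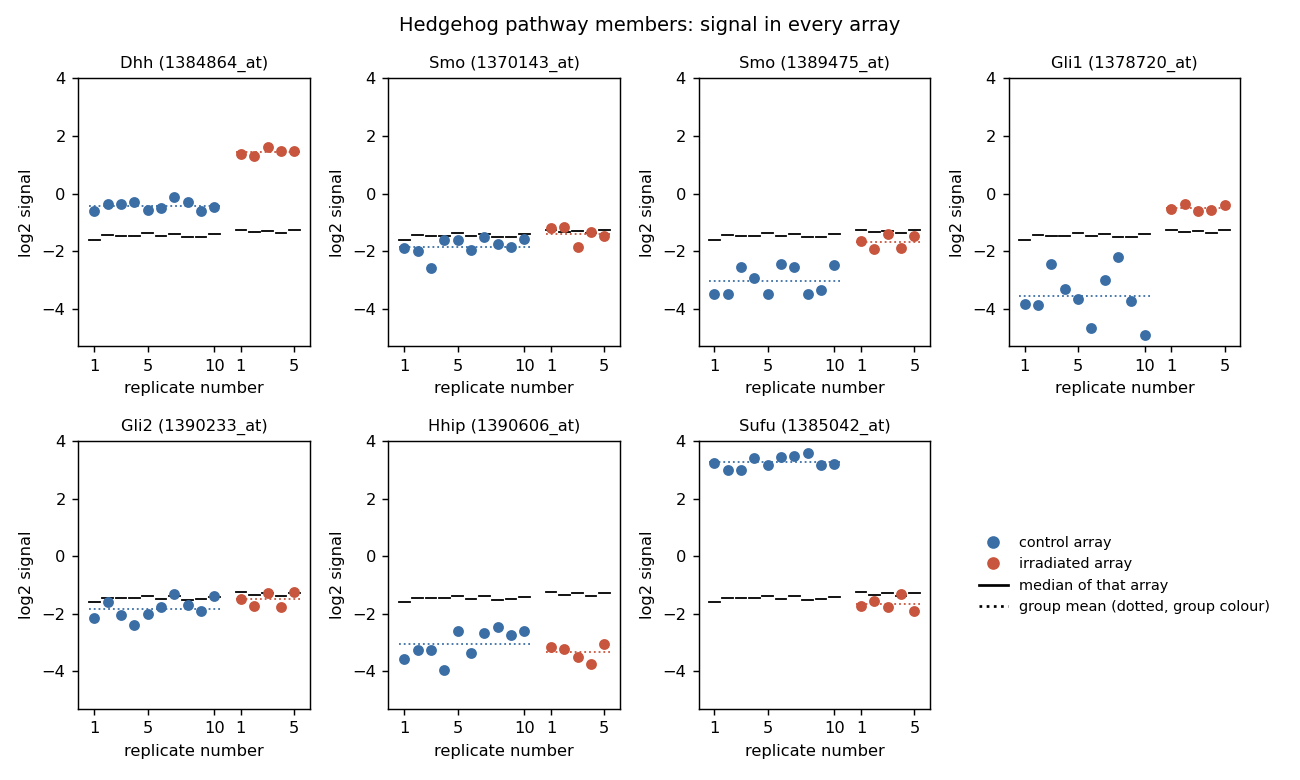
Log2 signal (vertical axis) of the 7 member probe sets in each of the 10 control (blue) and 5 irradiated (red) arrays, with the median of each array as a black dash and the group mean as a dotted line. Dhh lies above the array median in all arrays and higher in the irradiated ones, Gli1 crosses it from below, Sufu drops to about the median, and both Smo probe sets, Gli2 and Hhip stay near or under it.

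Dhh, the ligand, was measured above the array median in all 15 arrays. Its control signals had a lowest value of -0.62, a median of -0.41 and a highest value of -0.13. In irradiated replicates 1 to 5 the signals were 1.38, 1.30, 1.61, 1.49 and 1.49. The lowest irradiated sample therefore stood well above the highest control sample, and the spread within each group was small, with SDs of 0.16 (n = 10) and 0.12 (n = 5). The mean rose from -0.42 to 1.45, a change of 1.88 ± 0.09 (SE), with a 95% interval from 1.68 to 2.07 (limma adjusted p = 7.07e-12). Relative to the median change of 0.30 over all tested probe sets, the rise was 1.58, and 16.8% of tested probe sets rose more.

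Gli1, the transcription factor whose own transcription is the usual readout of the pathway, was below the array median in all 10 control arrays and above it in all 5 irradiated arrays. Control signals ranged from -4.92 to -2.22 with a median of -3.69. The irradiated signals were -0.53, -0.37, -0.61, -0.57 and -0.41 in replicates 1 to 5. The irradiated samples lay within a narrow band, 0.68 to 0.97 above their array medians, whereas the dim control samples were scattered, with SDs of 0.10 (n = 5) and 0.86 (n = 10). With control arrays raised to their medians the change was at least 0.97 on the log2 scale. The measured difference of 3.07 passed the threshold (limma adjusted p = 5.51e-07), but since the filter let Gli1 in through the irradiated arrays alone, this p is no separate support. With a filter at the 75th percentile of the array Gli1 was not tested.

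Sufu, which restrains the Gli proteins, showed the reverse pattern and had the largest measured change of the members. Its control signals ran from 2.98 to 3.60 with a median of 3.22, and all lay at least 4.43 above their array medians. In irradiated replicates 1 to 5 the signals were -1.71, -1.55, -1.76, -1.32 and -1.92, and 4 of these 5 lay below the array median. The irradiated mean of -1.65 was below the array median as well, so the measured change of -4.92 ± 0.12 (SE, limma adjusted p = 9.99e-16) is given as at most -4.57. Of all tested probe sets 2.15% had a lower measured change. The control values of Sufu were highest in samples 6, 7 and 8, at 3.45, 3.49 and 3.60, the samples with the largest actin differences, and without these 3 the change was -4.82 (adjusted p = 2.37e-13).

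Smo, the membrane protein that passes the signal into the cell, was read by a pair of probe sets that were both low. In 1370143_at the control signals ran from -2.60 to -1.52 with a median of -1.80, and none reached its array median. The irradiated signals were -1.21, -1.16, -1.84, -1.35 and -1.48, of which 3 reached the array median. These groups overlapped, with a difference of means of 0.44. In 1389475_at the control signals ran from -3.51 to -2.43 and the irradiated signals were -1.66, -1.92, -1.41, -1.89 and -1.48, which did not overlap, but all 15 lay below their array medians. A difference of 1.36 between values that are all dim gives no size of change. When every probe set was tested with no filter, both Smo probe sets were called higher (limma adjusted p = 0.0298 and 5.58e-05). So were 11743 of all 31042 probe sets in that setting, so these calls are not particular to Smo.

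Gli2, the main activator among the Gli proteins, lay around the array median and its groups overlapped. The control signals ran from -2.37 to -1.30 with a median of -1.83, and irradiated replicates 1 to 5 had -1.49, -1.72, -1.28, -1.76 and -1.23. In each group 2 arrays reached the median. Tested with no filter, the difference of 0.32 had a 95% interval from -0.04 to 0.69 and did not pass (adjusted p = 0.105).

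Hhip, the decoy that binds hedgehog ligands at the cell surface, was dim in every array of both groups. Its control signals ran from -3.96 to -2.46 with a median of -2.99, and the irradiated signals were -3.15, -3.22, -3.50, -3.73 and -3.06. All irradiated values fell inside the control range, and with no filter the difference of -0.29 had an interval from -0.79 to 0.21 (adjusted p = 0.292). No size of change can be given for a gene that is dim in both groups.

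The members were then set beside marker genes of testicular cell types, among them the cells that make and receive the ligand. Sertoli cell genes were higher in 14 of 14 tested genes of 21 listed, against 47.6% of all tested genes called higher and 37.9% called lower. Their median change was 2.00, against 0.20 over all genes, and they ranged from 0.32 for the transcription factor gene Dmrt1 to 2.99 for the intermediate filament gene Vim. The Sertoli genes Amh, Rhox5 and Gdnf were in the table but did not pass the filter. The summed linear signal of the list rose from between 35.1 and 44.4 in control to between 143 and 196 in irradiated arrays. The change of Dhh, at 1.88, lay inside the range of the list. It also lay inside the ranges of the Leydig, peritubular myoid, endothelial, macrophage, Schwann cell and spermatogonial lists given below. Lying inside the range is therefore not particular to the Sertoli list. With each array centred on the median of its Sertoli genes, the change of Dhh was 0.04 with a 95% interval from -0.23 to 0.30 (limma adjusted p = 0.784). This centring takes the same amount from every gene of an array. Any gene with a change near that of the list therefore ends near 0.

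Genes of the receiving cells were higher as well. Leydig cell genes were called higher in 14 of 14 tested genes of 16, with a median change of 2.92, and peritubular myoid cell genes in 12 of 12 with a median of 2.50, of which 4 were dim in every control array. With dim arrays raised to their medians, the peritubular median was 1.53 and the Leydig median again 2.92. Their summed linear signals rose from between 11.9 and 17.1 to between 117 and 143 for Leydig cells, and from between 9.96 and 12.95 to between 50.3 and 62.7 for peritubular cells. The genes ranged from 1.20 to 4.37 in the Leydig list and from 0.81 to 4.67 in the peritubular list. Relative to the Leydig list the change of Dhh turned to -1.31 (adjusted p = 6.82e-08). The measured difference of Gli1 turned to -0.12 there, but with its control signals all dim, how Gli1 moved relative to either list cannot be read from these arrays. Both centrings, on the Sertoli and on the Leydig list, take the same amount from every gene of an array. They could not test the part of the marker genes in the changes of Dhh and Gli1, which was not tested otherwise.

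Germ cell genes moved with Sufu. Spermatocyte genes were called lower in 5 of 5 tested genes of 14 and spermatid genes in 15 of 15 of 16, with median measured changes of -6.99 and -7.98. Their summed linear signals fell from between 60.9 and 81.3 to between 0.41 and 0.59, and from between 398 and 594 to between 2.41 and 5.47. The 5 spermatocyte genes and 9 of the 15 spermatid genes were dim in every irradiated array. They passed the filter through control arrays alone, so their calls as lower are no separate support. With arrays at no less than their medians the list medians were -3.64 and -6.09. Among the spermatid genes the measured change of Sufu lay between those of the acrosomal protein gene Acrv1, -4.52, which was dim in every irradiated array, and the sperm glycolytic enzyme gene Gapdhs, -5.80. Spermatogonial genes did not share one direction, with 2 of 6 called higher and 2 lower. Of the higher ones, Kit was dim in every control array and passed the filter through irradiated arrays alone. The other, Id4, had probe sets that passed in opposite directions, from -0.84 to 0.84. Of the lower ones, Gfra1 was dim in every irradiated array and Bcl6b was not. The part of germ cell genes in the fall of Sufu was not tested.

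Dhh is also known from Schwann cells and endothelium. Of 5 tested Schwann cell and nerve genes, 2 were called higher and 2 lower, with a median change of -0.01 and summed signals of 3.45 to 5.28 in control and 5.92 to 8.20 in irradiated arrays. The defining markers Mbp and Sox10 did not pass the filter. Endothelial genes were higher in 8 and lower in 2 of 11, with a median of 1.14 (0.62 at their bounds). Their summed signals were 3.01 to 4.22 and 6.50 to 7.13. Of the 8 higher genes, 4 were dim in every control array. The 2 lower genes, Icam2 and Flt1, were dim in every irradiated array. The probe sets of Icam2 passed in opposite directions, from -2.02 to 2.80. Macrophage genes were higher in 10 and lower in 2 of 12 (Aif1 and Adgre1), with a median of 2.90 (2.21 at their bounds). Their summed signals were 12.8 to 16.7 and 30.1 to 33.5. Of these 12 genes, 4 were dim in every control array and 1, Adgre1, in every irradiated array.

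**Figure D2:**
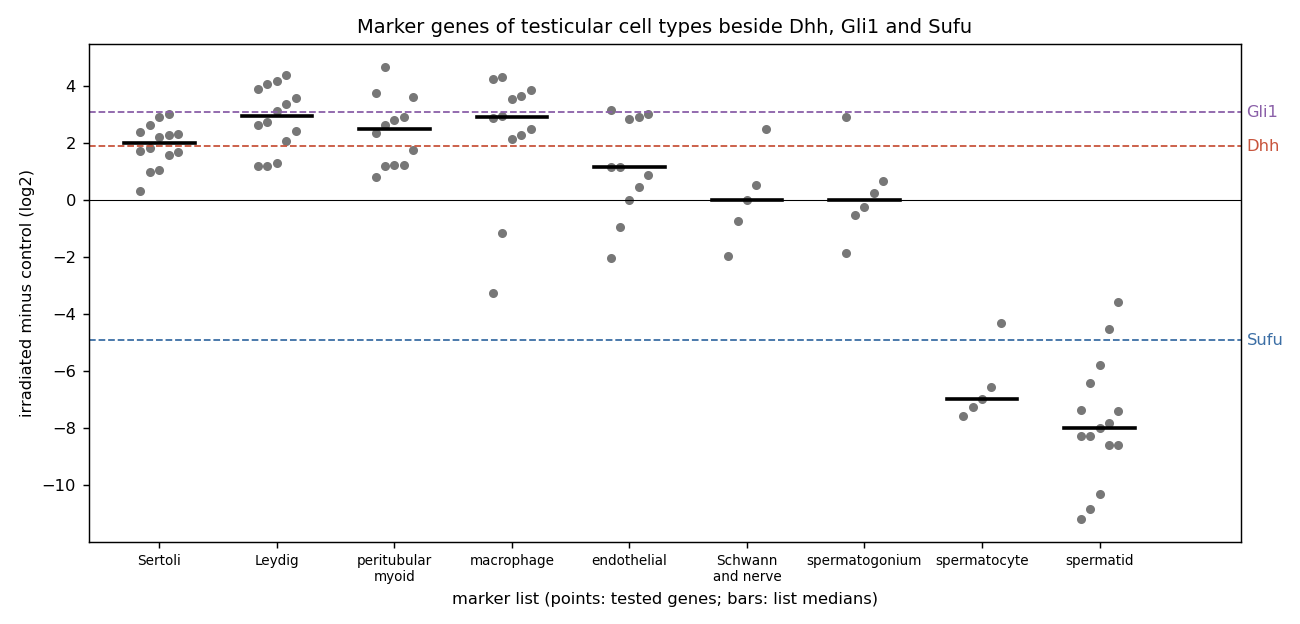
Change of each tested marker gene (points, irradiated minus control on the log2 scale) in 9 lists of testicular cell types, with list medians as bars and the changes of Gli1, Dhh and Sufu as dashed lines. Dhh at 1.88 runs close to the Sertoli median of 2.00, the line of Gli1 at 3.07 is a measured difference with a bound of only 0.97, and Sufu at -4.92 between the marker lists of somatic cells and the medians of spermatocytes and spermatids.

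The direction of the 3 tested members depended on what the arrays were set level to in some cases. Equal array medians gave measured changes of 1.72 for Dhh, 2.91 for Gli1 and -5.08 for Sufu, and quantile normalization gave 1.60, 2.85 and -4.95, all past the threshold (limma). Relative to the Sertoli and Leydig lists the measured changes of Sufu were -6.76 and -8.11. These 2 centrings move all genes down by construction, so a gene already lower had to stay lower. Of all called probe sets 58.8% were higher as deposited, against 13.4% relative to the Sertoli list and 2.07% relative to the Leydig list, with median changes over all tested probe sets of -1.54 and -2.89.

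**Figure D3:**
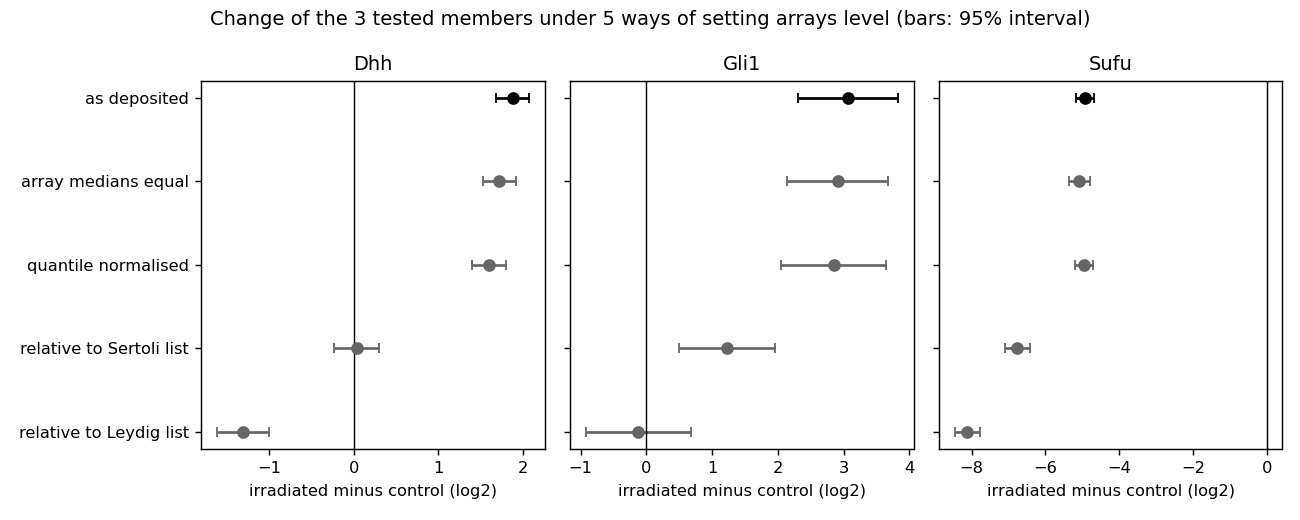
Measured change of Dhh, Gli1 and Sufu (irradiated minus control, log2, points with 95% intervals) with the arrays as deposited and under 4 other ways of setting them level. The interval of Dhh spans 0 relative to the Sertoli list and lies below 0 relative to the Leydig list, that of Gli1, which rests on dim control values, spans 0 relative to the Leydig list, and that of Sufu lies below 0 in all 5.

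The rest of the pathway was read from 4 lists with 73 genes other than the members, of which 57 had a probe set of a single symbol and 44 were tested. Of these 44, 16 were higher and 21 lower in irradiated testes and 7 did not pass, or 36.4% higher and 47.7% lower against 47.6% higher and 37.9% lower over all genes. With the mean of all probe sets of a gene, 19 were higher and 18 lower, so which direction was the more frequent depended on the probe sets used. The median change of the 44 was -0.26, against 0.20 over all genes. Of the 21 lower genes, 5 (Stk36, Csnk1g1, Efcab7, Dyrk2 and Foxm1) were dim in every irradiated array, as were 1384 of all 10841 genes tested. These 5 passed the filter through control arrays alone, so their calls as lower are no separate support. Genes listed as targets were mostly higher, while genes of ciliary transport were mostly lower.

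Of 16 genes for release and reception of the ligand, 12 had a probe set and 4 were tested. Gpc4, a glypican that carries heparan sulphate at the cell surface, rose by 1.47 ± 0.09 (SE, adjusted p = 1.09e-10). Lrp2, a large endocytic receptor, had an irradiated mean below the array median and changed by at most -0.42, and Ihh, the Indian hedgehog ligand, fell by 0.35 (adjusted p = 0.00453). The secreted carrier gene Scube1 had a change of 0.41 and did not pass (adjusted p = 0.171). The ligand gene Shh and the co-receptor genes Cdon, Boc and Gas1 were on the array and did not reach the filter.

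Of 13 genes listed as transcriptional targets 7 were tested, with 5 higher, 1 lower and a median change of 1.13. Ccnd1, a cyclin that drives entry into the cell cycle, rose by 2.49 ± 0.21 (SE, adjusted p = 9.30e-09), with its 3 probe sets between 2.49 and 3.04 and 4 of 10 control arrays below the median, and the related Ccnd2 rose by 1.13. The matrix protein gene Spp1 rose by 2.48 and Rab34, a small GTPase needed for cilia, by 1.83, although another probe set of Rab34 changed by 0.40. Snai1, a transcription factor of mesenchymal cells, rose by 0.36. Dim in every irradiated array, Foxm1, a transcription factor of dividing cells, was lower by at least 5.24-fold. It passed the filter through control arrays alone. The limma adjusted p of its measured change, 1.91e-12, is therefore no separate support. Mycn had a change of 0.37 and did not pass (adjusted p = 0.0586). Relative to the Sertoli list, 3 of the 44 genes over all 4 lists were called higher and 39 lower, so the direction of single targets is not fixed by these data.

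Smoothened and the Gli proteins pass through the primary cilium, which is built by intraflagellar transport, a machinery that also builds the sperm tail. Of 7 tested transport genes 6 fell and none rose, with a median change of -2.28. The kinesin motor gene Kif3a changed by at most -3.17, with another probe set at -3.02 as measured, and its partner Kif3b by -1.56, with another probe set of Kif3b at -5.65. The dynein motor gene Dync2h1 changed by -2.40 and the transport particle genes Ift122, Ift172 and Ift88 by -2.39, -2.28 and -1.79 (largest adjusted p = 7.79e-11 among these 6). Ift52 changed by -0.15 and did not pass (adjusted p = 0.262). The spermatid marker genes given above fell in the same arrays, and their part in these changes was not tested.

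Proteins that carry the signal between Smoothened and the Gli factors went both ways, with 10 of 26 tested genes higher, 12 lower and 4 not past the threshold. The 12 lower include every gene of the next paragraph, whose probe sets passed in opposite directions. Of the 12, 4 (Stk36, Csnk1g1, Efcab7 and Dyrk2) were dim in every irradiated array. Iqce, a protein of the ciliary base that holds the Evc proteins there, changed by at most -3.15 in the probe set that stands for it and by -2.12, as measured, in another. Stk36, a kinase related to the fly gene fused, was at least 7.25-fold lower and dim in every irradiated array in its brighter probe set, while another had a measured change of -1.04. The casein kinase gene Csnk1g1, dim in every irradiated array, was at least 6.46-fold lower. Gsk3b, which phosphorylates Gli proteins, fell by 2.76 ± 0.12 (SE). Prkacb, a catalytic subunit of protein kinase A, the kinase that primes the Gli proteins for processing, rose by 2.56 ± 0.10 (SE, adjusted p = 1.88e-13) in the brightest of its 3 probe sets, with the lowest of the 3 at 0.36.

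For 6 of the transducers the probe sets of one gene passed in opposite directions, so that no single direction holds for the gene. All 6 are counted as lower, among the 12 lower transducers and the 21 lower pathway genes, by their probe set with the highest mean. Csnk1d had measured changes from -3.28 to 1.53 over 5 probe sets and Csnk1a1 from -1.49 to 1.74 over 4. The ubiquitin ligase genes Btrc and Cul3, which act in the breakdown and processing of Gli proteins, ranged from -2.51 to 1.86 and from -1.62 to 1.35. The kinase gene Dyrk2 ranged from -2.19 to 3.09 as measured, and its probe set with the highest mean was dim in every irradiated array. Prkar1a, the regulatory subunit of protein kinase A, ranged from -0.43 to 2.71.

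**Figure D4:**
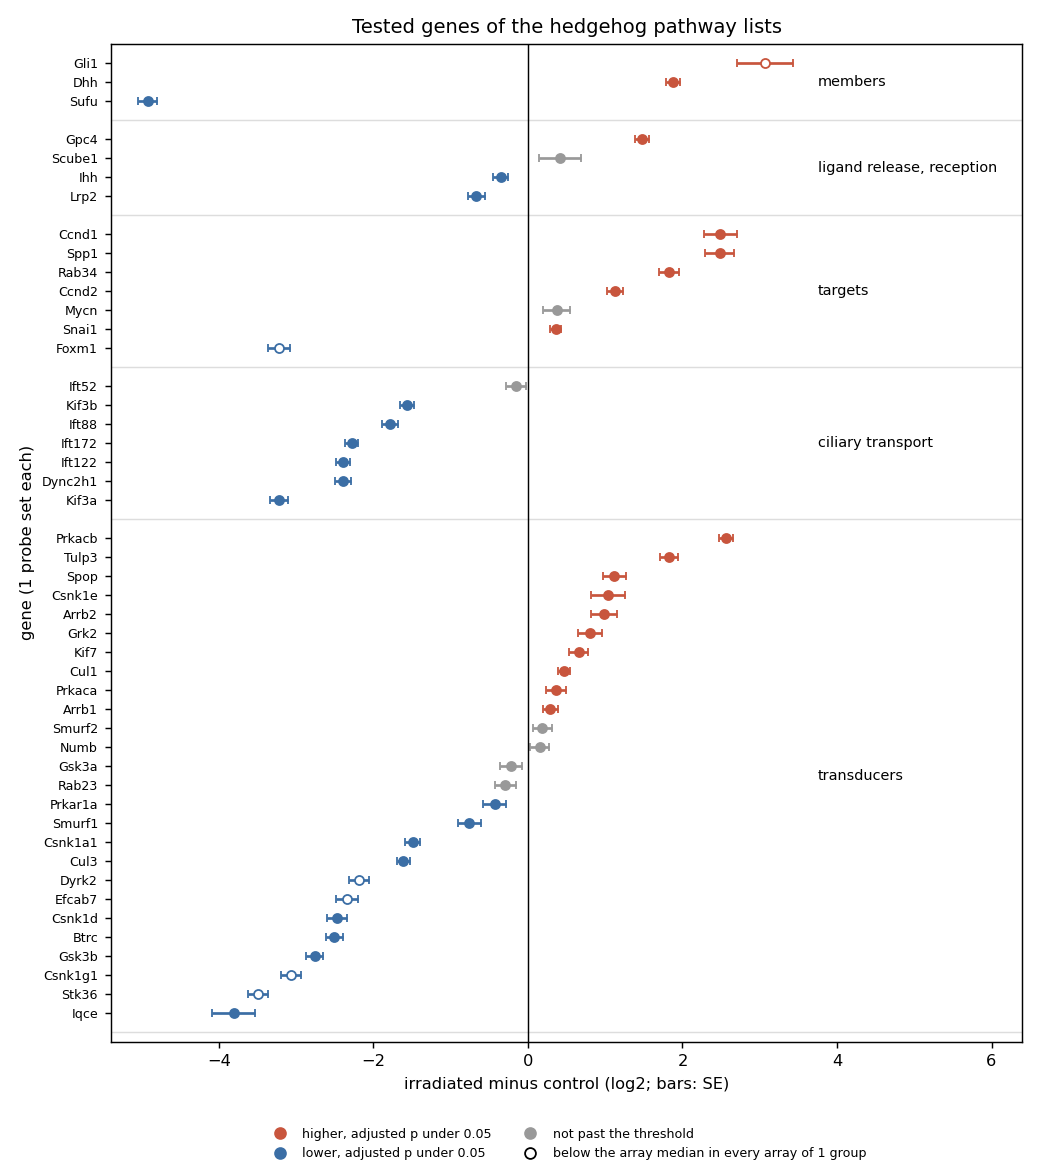
Change of the 3 tested members and the 44 other tested pathway genes (irradiated minus control on the log2 scale, points with SE, 1 probe set for each gene), grouped by role. Red genes passed as higher and blue genes as lower, open points were dim in every array of 1 group, and the ciliary transport genes lie left of 0 while 6 of the 7 targets lie right of it.

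Profiles most like those of the members were ranked by the root mean square difference over the 15 arrays after subtraction of each gene's control mean, among 10838 other genes. For Dhh these were Myo7a, an unconventional myosin, at 0.119, Lrrc8c, a subunit of volume-regulated anion channels, at 0.132, and Zmat1 at 0.138 log2 units, with changes of 1.76, 1.90 and 1.87. For Sufu they were Nupr2 at 0.149, 1700013D24Rik at 0.153 and Rgs22, a regulator of G protein signalling, at 0.169. Their measured changes were -4.95, -5.05 and -4.97, the second of them dim in every irradiated array. For Gli2 they were Dcaf4, Egfl8 and Zfp644, at 0.137, 0.159 and 0.177. Gli1, Smo and Hhip were below the array median in every array of at least 1 group and were not ranked.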

How the data were processed

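The deposited table holds 1 log2 value for each of 31099 probe sets in 15 arrays, made with MAS5 from 10 µg of total RNA, per the submitters' processing notes and the labels. No version is given, and the sources used here do not say how the authors scaled and logged the signals. Base 2 was inferred from the spike-ins, taken at nominal concentrations of 1.5, 5, 25 and 100 pM. Probe sets were named from the platform annotation of 2016: 20832 had 1 symbol, 436 several and 9831 none, and no symbol changed through RefSeq's GRCr8 gene table. The 57 AFFX probe sets were left out of tests.

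Irradiated and control arrays, grouped by their titles, were compared by lmFit and eBayes of limma 3.58.1 (2-sided, no covariate, R 4.3.3) with Benjamini-Hochberg adjustment over all tested probe sets, after a check on simulated data. A gene of a list was read by its tested probe set with the highest mean. A bound on a change sets every array at no less than its own median. The members and lists were chosen with earlier results of these data known. Named were all members, up to 5 called genes with the largest measured change in each pathway list, genes whose probe sets passed in opposite directions, and the 3 most alike profiles, with the rest of a short list and genes not past the threshold added after their values were seen. Alternatives were other normalizations and centrings, filters, left-out samples, a replicate block, array weights, and the mean of a gene's probe sets. The number of arrays limits the precision.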

Additional observations from a re-analysis of the deposited data

Results flagged for a closer look

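Of 14 sets of values checked (7 member probe sets in 2 groups), 1 held a value far from the rest. Control replicate 3 had the lowest signal of Smo probe set 1370143_at, -2.60, and its distance from the next control was 0.549 of the whole control range, above Dixon's critical value for 10 samples. Chance gives such a value in about 1 of 20 groups. Without this sample the difference of means was 0.35, against 0.44 with it, and the value is itself below the array median.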

How the results depend on the processing

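The calls of Dhh, Gli1 and Sufu kept their direction and their side of the threshold under quantile normalization, equal array medians and no filter. They also did so with array weights and a trend, the left-out samples and the replicate block. Under the filter and centrings given next Sufu was still called lower, while Dhh, Gli1 or both were no longer called higher. With a filter at the 75th percentile 9442 probe sets were called against 15598, and 1 member probe set higher, since Gli1 was not tested. With no filter 4 member probe sets were called higher, beside 11743 of all 31042 probe sets. Relative to the Sertoli list 1 member was higher, and 3 other pathway genes were higher and 39 lower. Relative to the Leydig list 0 members were higher and 2 lower, Dhh turned to -1.31 and the measured difference of Gli1, from dim controls, to -0.12, and 0 other pathway genes were higher and 44 lower. These centrings move all genes down by construction. Leaving out each sample in turn kept measured changes between 1.84 and 1.91 for Dhh and between -5.01 and -4.86 for Sufu. The measured difference of Gli1, from dim controls, lay between 2.92 and 3.22 and gives no size. Samples that share a number did not deviate together (correlations from -0.05 to 0.07, 1 of 5 irradiated samples most like its own number). No pairing by number was seen, but these correlations cannot exclude it. With the replicate block the changes were 1.90, 2.92 and -4.81, and 15123 probe sets were called.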
